A study of Rattus norvegicus with 6 samples.

Results

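The genes described are 10 members of TGF-beta and activin signalling, chosen by gene name: the ligand genes Tgfb1, Tgfb2, Tgfb3 and Inhba, the receptor genes Tgfbr1, Tgfbr2, Tgfbr3 and Acvr1, and the SMAD genes Smad3 and Smad7. All 10 were found among the 25689 genes of the count table, and all 10 passed the filter on low counts that left 14919 genes for testing. RNA came from neurons isolated from dorsal root ganglia (DRGs) at L1-L2 in wild type Spontaneously Hypertensive Rats (SHRs), an inbred model of essential hypertension, with 3 samples from rats whose perirenal adipose tissue had been removed surgically (PRATA) and 3 from rats with a sham operation. Cells were taken 4 weeks after the operation, and the labels state that rats were 6 to 8 weeks old while the study's methods give 12 weeks at purchase. The ganglia were digested with enzymes and plated for 5 h, and the neurons, which adhere more slowly than glia, were then flushed off, so the cells of every sample had been dissociated and briefly cultured. The comparison asks how the transcripts of these cell preparations differed after PRATA. Markers of satellite glia, Schwann cells and fibroblasts were also counted in every sample, as given below, so the RNA was not of neurons alone.

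TGF-beta and activin are secreted dimers that bind pairs of type I and type II receptor kinases on the cell surface. The activated type I receptor phosphorylates SMAD2 and SMAD3, which enter the nucleus with SMAD4 and change transcription, and SMAD7 is induced as a feedback inhibitor of the receptors. In peripheral nerve and ganglia the pathway is known for its part in neuron survival, Schwann cell behaviour, the response to nerve injury and the production of extracellular matrix.

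The promoters of Smad3 and Smad7 are shown because these genes are the SMAD members, whose groups did not overlap in the counts below. Windows of 300 bases, 250 before and 50 after the RefSeq transcript start in GRCr8, were found for 9 of the 10 members, all but Acvr1. They lie at chr8:73132275-73132574 on the minus strand for Smad3 and at chr18:71263258-71263557 on the plus strand for Smad7. Capitals mark GC boxes, GGGCGG or its complement on the other strand.
Smad3: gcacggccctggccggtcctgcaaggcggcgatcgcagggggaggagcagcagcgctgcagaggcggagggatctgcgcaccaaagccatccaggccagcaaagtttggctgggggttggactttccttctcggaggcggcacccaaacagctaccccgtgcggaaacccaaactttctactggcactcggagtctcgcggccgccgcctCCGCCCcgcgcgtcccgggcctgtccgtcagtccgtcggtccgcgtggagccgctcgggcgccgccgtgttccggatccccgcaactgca
Smad7: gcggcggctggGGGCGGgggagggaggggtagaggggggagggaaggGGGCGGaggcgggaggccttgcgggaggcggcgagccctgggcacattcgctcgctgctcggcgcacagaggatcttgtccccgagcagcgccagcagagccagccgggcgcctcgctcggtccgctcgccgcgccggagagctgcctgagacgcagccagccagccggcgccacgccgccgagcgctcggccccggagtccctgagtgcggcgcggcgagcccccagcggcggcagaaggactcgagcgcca
The Smad3 window held 1 GC box and the Smad7 window 2. GC boxes were present for 5 of the 9 members (Tgfbr1, Tgfbr2, Tgfbr3, Smad3 and Smad7). Of all 33469 promoter windows of the same length, 33.1% held one. A member was counted if any window under its name held the motif, whereas the shares over all windows count single windows. The palindromic SMAD binding element GTCTAGAC was present in 0.197% of all windows and the AP-1 site TGACTCA in 4.63%. Both were found for 0 of the 9 members on either strand. The E-box CACGTG, present in 6.42% of all windows, was found in that of Tgfb2 alone. No window of a member held 2 of these motifs, so none overlapped another.

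The libraries ranged from 5892967 reads (sham replicate 2) to 15226952 reads (sham replicate 1), and a floor of 3 counts corresponded to between 0.197 and 0.509 CPM (counts scaled to a library of fixed size). The members were well above it, from 59 counts for Smad3 in PRATA replicate 1 to 2416 for Tgfbr3 in sham replicate 1. Levels below are CPM scaled by edgeR's TMM method, which divides out library size and composition but not gene length, so they are compared between samples and not between genes. The 15 markers of sensory neurons had counts in every sample, with a summed level between 9541 and 21135 CPM. Over all genes tested, PRATA replicate 3 and sham replicate 1 were each other's nearest samples (Euclidean distance of 92.7 in log2 CPM, against 98.2 or more to any other sample) and clustered apart from the other 4, so values without this pair are given below.

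Of the 10 members 8 had a lower and 2 a higher fitted level after PRATA, with all 4 ligand genes and both SMAD genes lower and the receptor genes split 2 and 2, though no member passed the adjusted test. In the quasi-likelihood test of edgeR, two-sided and adjusted by Benjamini-Hochberg across the 14919 genes, 0 members had an adjusted p under 0.05, as did 0% of all genes tested in either direction. At an unadjusted p under 0.05, 6 members were lower and 0 higher, against 10.1% of all genes tested lower and 8.19% higher. The groups did not overlap for 4 members that were lower (Tgfb3, Tgfbr1, Smad3 and Smad7) and for 1 that was higher (Acvr1), against 11.2% and 11.6% of all genes tested. The members were chosen with earlier results of these data known, so these counts describe them and are not a test of the group. The median log2 fold change of the 10 members was -0.80, and that of all genes tested was 0.02. By role the medians were -1.45 for the SMAD genes, -0.81 for the ligand genes and -0.12 for the receptor genes. An exact permutation test over samples, two-sided, cannot go below p = 0.1 with 3 samples a group, which any gene without overlap reaches, and gave p = 0.2 for Tgfb1 and Tgfb2, 0.4 for Inhba and 0.6 for Tgfbr2 and Tgfbr3.

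**Figure D1:**
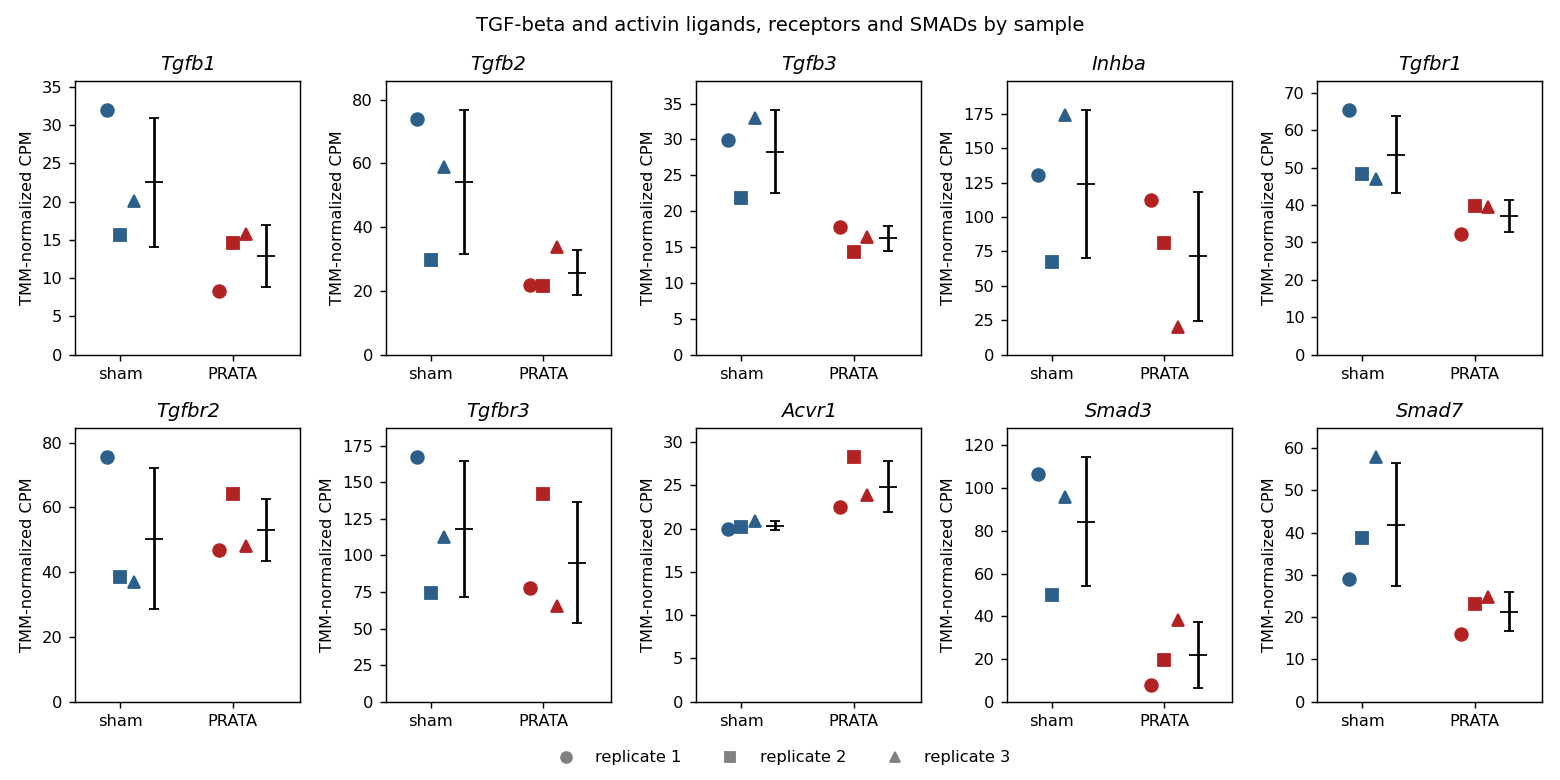
TMM-normalized CPM (vertical axes, from 0, with a scale of its own for each gene) of the 10 members in the 3 sham samples (blue) and the 3 PRATA samples (red), with the mean and SD of each group in black and the replicate number as the marker shape. Smad3 ran from 7.62 to 38.4 CPM after PRATA and from 49.9 to 107 CPM after the sham operation, whereas Tgfbr2 and Tgfbr3 overlapped widely.

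Among the ligand genes, Tgfb1 (ENSRNOG00000020652) encodes the TGF-beta isoform best known for fibrosis and immune control. In the order of replicates 1, 2 and 3, used for all genes below, it was at 8.26, 14.6 and 15.8 CPM after PRATA and at 31.9, 15.6 and 20.1 CPM after the sham operation. The groups met at their edges, where PRATA replicate 3 lay just above sham replicate 2, and the spread among the sham samples came mainly from replicate 1. The log2 fold change was -0.81 (standard error 0.33, 95% interval -1.57 to -0.04, edgeR adjusted p = 0.255). Without sham replicate 1 it was -0.49 and without PRATA replicate 1 it was -0.60, and in neither case was the unadjusted p under 0.05.
Tgfb2 (ENSRNOG00000002418), a TGF-beta isoform expressed by neurons and glia, was at 21.8, 21.5 and 33.8 CPM after PRATA and at 74.1, 29.8 and 58.8 CPM after the sham operation. Sham replicate 2 lay within the PRATA range, while the other sham samples stood above every PRATA sample. PRATA samples averaged 25.7 ± 6.99 CPM and sham samples 54.2 ± 22.5 CPM (SD, n = 3 each), with a log2 fold change of -1.08 (standard error 0.34, edgeR adjusted p = 0.188).
Tgfb3 (ENSRNOG00000009867), the third TGF-beta isoform, showed the tightest PRATA samples of the ligand genes, at 17.8, 14.3 and 16.4 CPM, against 29.9, 21.9 and 33.1 CPM after the sham operation. Every PRATA sample was below every sham sample. Sham samples averaged 1.75 times the PRATA level (log2 fold change -0.81, standard error 0.21, edgeR adjusted p = 0.168), the lowest adjusted p of the 10 members.
Without sham replicate 2, the sample of lowest depth, Tgfb2 and Tgfb3 had adjusted p values of 0.0376 and 0.0394 in edgeR with log2 fold changes of -1.37 and -0.96, and were the only members called, where 3.62% of all genes tested were lower and 1.05% higher at that threshold.

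Inhba (ENSRNOG00000014320) encodes the beta A subunit, 2 copies of which form activin A, a ligand induced by injury and by neuronal activity. It was at 112, 81.4 and 20.2 CPM after PRATA and at 131, 67.1 and 174 CPM after the sham operation. The groups overlapped, and the range within PRATA was 5.55-fold because replicate 3 lay far below the other PRATA samples. The log2 fold change was -0.80 with an interval that included 0 (standard error 0.57, 95% interval -2.11 to 0.51, edgeR adjusted p = 0.476). It was -0.36 without PRATA replicate 3 and -0.34 without both PRATA replicate 3 and sham replicate 1. Without PRATA replicate 1 it was -1.30 and without sham replicate 3 it was -0.47, so its size depended on several libraries.

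The mix of the 3 TGF-beta isoforms did not differ beyond the spread between samples. Tgfb2 took 45.6%, 42.7% and 51.1% of the reads on the 3 genes after PRATA and 54.5%, 44.3% and 52.5% after the sham operation, a difference of -3.99 percentage points (exact permutation test over samples, two-sided, p = 0.3, adjusted p = 0.7 over 6 shares). The share of Tgfb1 differed by 1.82 points and that of Tgfb3 by 2.17 points (p = 0.7 for each by the same exact test, adjusted p = 0.7). These shares do not depend on library scaling, but they weight longer transcripts more and are not molar ratios. With 3 samples a group, differences of this size lay within the spread of the samples, where the SD of a share was between 3.10 and 6.33 points.

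Among the receptor genes, Tgfbr1 (ENSRNOG00000007036), which encodes the type I receptor kinase that phosphorylates SMAD2 and SMAD3, was at 32.1, 39.8 and 39.4 CPM after PRATA and at 65.3, 48.2 and 46.9 CPM after the sham operation. The groups did not overlap, although PRATA replicate 2 and sham replicate 3 were close. The log2 fold change was -0.53 (standard error 0.20, 95% interval -0.98 to -0.08, edgeR adjusted p = 0.227). It was -0.46 without PRATA replicate 1 (edgeR unadjusted p = 0.093) and -0.41 without the pair that stood apart (edgeR unadjusted p = 0.129). With the replicate number as a block it was -0.51 (edgeR unadjusted p = 0.086).
Tgfbr2 (ENSRNOG00000013265), the type II receptor that binds the ligand and activates TGFBR1, was at 47.0, 64.1 and 48.2 CPM after PRATA and at 75.4, 38.4 and 37.0 CPM after the sham operation. Sham replicate 1 was the highest of all samples and the other sham samples were the lowest. The log2 fold change was 0.08 (standard error 0.30, 95% interval -0.61 to 0.76, edgeR adjusted p = 0.916), so a change in either direction of that extent was not resolved at this depth and number of samples. Its sign turned without PRATA replicate 2 (-0.08), sham replicate 2 (-0.08) or sham replicate 3 (-0.10), and it was 0.48 without sham replicate 1.
Tgfbr3 (ENSRNOG00000002093), the coreceptor betaglycan that presents TGF-beta2 to the signalling receptors, was at 78.0, 142 and 65.2 CPM after PRATA and at 167, 74.3 and 113 CPM after the sham operation. The groups ranged 2.18-fold and 2.25-fold and overlapped, with a log2 fold change of -0.31 (standard error 0.37, 95% interval -1.16 to 0.53, edgeR adjusted p = 0.680). It was 0.01 without sham replicate 1, 0.22 without both that sample and PRATA replicate 3, -0.10 without PRATA replicate 3, and -0.72 without PRATA replicate 2.

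Acvr1 (ENSRNOG00000005033), a type I receptor that mainly serves bone morphogenetic proteins (BMPs) and also binds activin without driving SMAD3, was the only member higher in every PRATA sample than in any sham sample. It was at 22.5, 28.2 and 23.9 CPM after PRATA and at 20.0, 20.1 and 20.9 CPM after the sham operation, so that the sham samples differed by 1.05-fold at most. The log2 fold change was 0.29 (standard error 0.17, 95% interval -0.10 to 0.68, edgeR adjusted p = 0.390) and did not pass the test even unadjusted. It was 0.19 without PRATA replicate 2.
Within the reads on Tgfbr1, Tgfbr2 and Tgfbr3, the Tgfbr2 share was higher after PRATA, at 29.9%, 26.1% and 31.6% against 24.5%, 23.9% and 18.8% in the sham samples. The groups did not overlap and differed by 6.78 percentage points (exact permutation test over samples, two-sided, p = 0.1, the smallest this design allows, adjusted p = 0.6 over 6 shares). The shares of Tgfbr1 and Tgfbr3 differed by -4.20 and -2.58 points, with overlapping groups (p = 0.4 and p = 0.7 by the same exact test, adjusted p = 0.7 for each).

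Of the SMAD genes, Smad3 had the lowest fold change of all members. Smad3 (ENSRNOG00000008620) encodes a transcription factor that carries the TGF-beta and activin signal to DNA, and was at 7.62, 19.5 and 38.4 CPM after PRATA and at 107, 49.9 and 95.8 CPM after the sham operation. No PRATA sample reached the lowest sham sample, but the PRATA samples themselves ranged 5.04-fold. PRATA samples averaged 21.8 ± 15.5 CPM and sham samples 84.2 ± 30.2 CPM (SD, n = 3 each), a level 3.84 times that after PRATA by the fitted log2 fold change of -1.94 (standard error 0.53, 95% interval -3.17 to -0.71, edgeR adjusted p = 0.169). Without PRATA replicate 1, the lowest sample, it was -1.58 (standard error 0.43, edgeR adjusted p = 0.550). The unadjusted edgeR p of Smad3 was 0.0065 with all samples and 0.0075 without PRATA replicate 1. Without the pair of samples that stood apart its log2 fold change was -2.42 (edgeR adjusted p = 0.149).
Smad7 (ENSRNOG00000018359), the inhibitory SMAD that targets the receptors for degradation, was at 16.1, 23.1 and 24.8 CPM after PRATA and at 29.2, 38.7 and 57.8 CPM after the sham operation. The groups did not overlap, and sham replicate 3 was the highest sample. PRATA samples averaged 21.3 ± 4.57 CPM and sham samples 41.9 ± 14.6 CPM (SD, n = 3 each), with a log2 fold change of -0.97 (standard error 0.29, 95% interval -1.63 to -0.31, edgeR adjusted p = 0.175). Without sham replicate 3 the log2 fold change was -0.65 (edgeR adjusted p = 0.529).

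**Figure D2:**
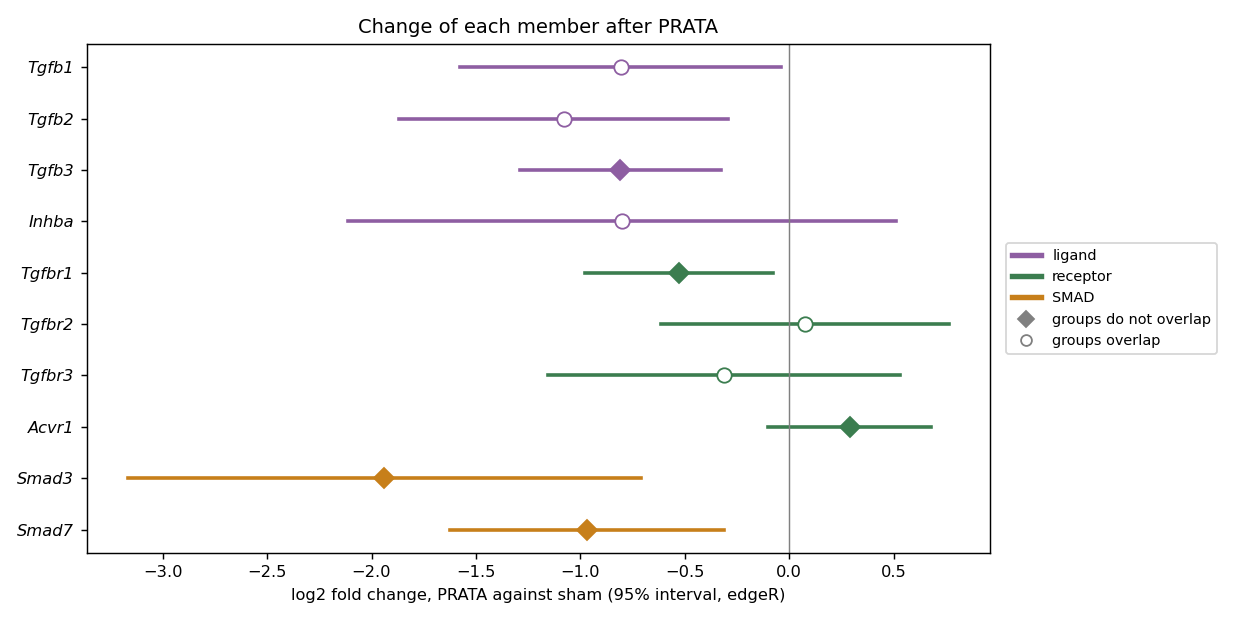
Log2 fold change of each member, PRATA against sham (horizontal axis), with its 95% interval from edgeR as a line, coloured by role, and a filled diamond where the groups did not overlap. The intervals of 6 members lay below 0 without adjustment for multiple tests, and those of Inhba, Tgfbr2, Tgfbr3 and Acvr1 included 0.

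Samples contributed unevenly to these differences. Sham replicate 1 was the highest of all 6 samples for 6 of the 10 members, and sham replicate 2 was the lowest sham sample for 6 of them. PRATA replicate 1 was the lowest of all samples for 4 members. Without the pair that stood apart, 7 members were lower and 3 higher, with a median log2 fold change of -0.53 and 4 members at an unadjusted p under 0.05, all lower, against 6.9% of all genes tested lower and 5.98% higher.
Other tests called some members. DESeq2 called Tgfb2, Tgfb3, Smad3 and Smad7 lower at an adjusted p under 0.05 (0.0391, 0.0339, 0.00397 and 0.0421), where 4.29% of the genes with an adjusted p were called lower and 1.93% higher. Limma voom with sample quality weights called the same 4 genes lower (adjusted p of 0.0413, 0.0367, 0.0351 and 0.0426), where it called 4.87% of all genes tested lower and 3% higher. With the replicate number as a block, edgeR had 4 members at an unadjusted p under 0.05, all lower, against 6.08% of all genes tested lower and 4.16% higher. For the 4 genes that DESeq2 and voom called, the log2 fold change was negative under each of the 12 alternatives run. The same held for Tgfb1, Inhba and Tgfbr1, which no alternative called, and Acvr1 was positive under each. The alternatives reuse the same samples.

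**Figure D3:**
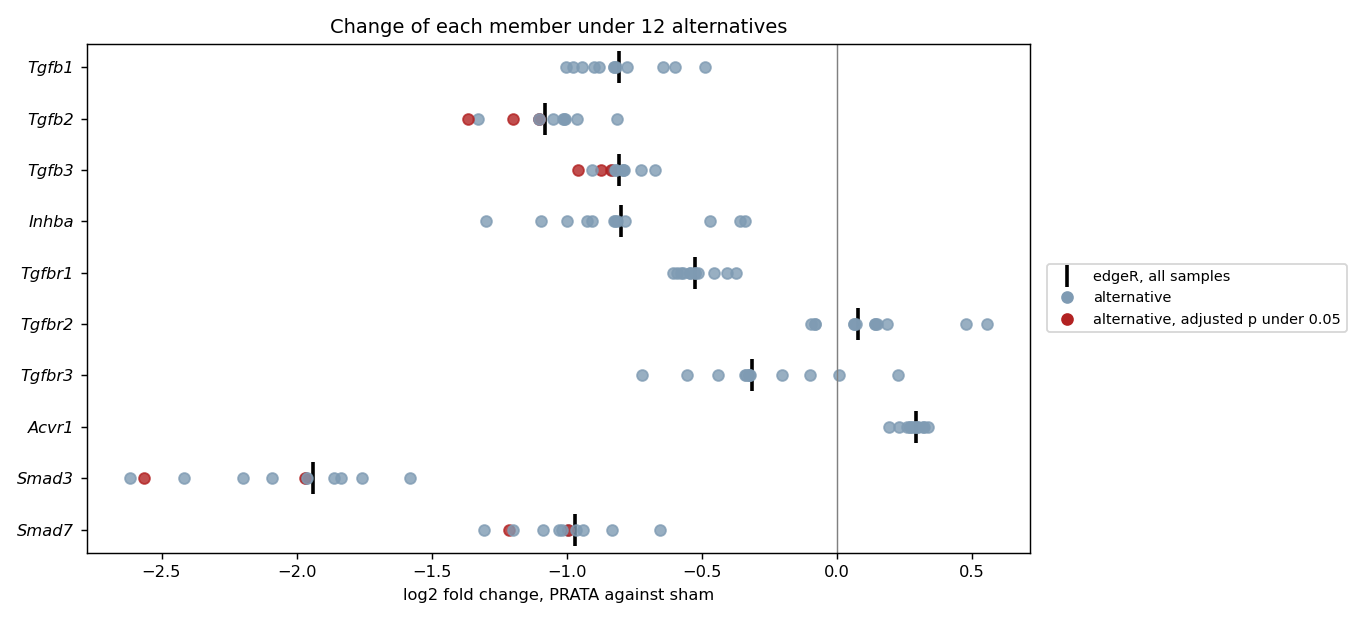
Log2 fold change of each member (horizontal axis) in edgeR with all samples (black bar) and under the 12 alternatives (points, red where the adjusted p was under 0.05). The points of Tgfbr2 and Tgfbr3 lie on both sides of 0, while those of Smad3 lie between -2.62 and -1.58.

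A wider list of 80 other genes of the pathway, written from general knowledge but with earlier results of these data known, was examined by role. Of these, 79 matched the table and 73 were tested, with a median log2 fold change of -0.25 that was -0.08 without sham replicate 1. None had an adjusted p under 0.05 in edgeR, whereas 17 were lower and 4 higher at an unadjusted p under 0.05, against the same 10.1% and 8.19% of all genes tested. Among the higher genes were Acvr1b, Smad1 and Id2, of which Smad1 and Id2 are named after their values were seen. DESeq2, which gave no adjusted p for Fst, called 7 genes of the list lower, against 4.29% of all genes with an adjusted p. Voom called 9 lower, against 4.87%, and edgeR without sham replicate 2 called 11 lower, against 3.62%, with 0 of the list called higher by any of these. At an unadjusted p under 0.05, edgeR had 27 of the list without sham replicate 2 (23 lower, 4 higher), against 14.1% of all genes tested lower and 13.4% higher. It had 13 without PRATA replicate 1 (11 lower, 2 higher), against 5.44% and 3.47%, and 10 without sham replicate 3 (10 lower, 0 higher), against 5.57% and 3.76%.

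Latency and activation genes govern the release of TGF-beta from its inactive matrix-bound complex. All 12 were tested, with a median log2 fold change of -0.43. Of them 4 were lower and 0 higher at an unadjusted p under 0.05, against 10.1% and 8.19% of all genes tested. Itgb8 (ENSRNOG00000006569), the beta 8 integrin subunit that pairs with alpha V to activate latent TGF-beta, was at 154, 215 and 159 CPM after PRATA and at 496, 392 and 839 CPM after the sham operation. The groups stood well apart, and the sham level was 3.27 times that after PRATA (log2 fold change -1.71, standard error 0.32, edgeR adjusted p = 0.156). Its partner Itgav was at -0.90 on the log2 scale (edgeR adjusted p = 0.243) and the latent TGF-beta binding protein gene Ltbp2 at -0.72 (edgeR adjusted p = 0.240), both with overlapping groups.

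Of the other ligand genes, 9 of 12 were tested. Among these 1 was lower and 0 higher at an unadjusted p under 0.05, against 10.1% and 8.19% of all genes tested. Bmp6, which encodes a BMP, averaged 9.49 CPM in the PRATA samples and 17.6 CPM in the sham samples without overlap, with a log2 fold change of -0.89. Gdf11, a ligand that signals through activin receptors, pointed the other way at 0.44 without overlap, and the stress-induced Gdf15 was at -0.44 with overlap and at -0.67 without PRATA replicate 2. The edgeR adjusted p values of these 3 genes were 0.175, 0.273 and 0.395.
Of the other receptor genes, 8 of 10 were tested, and their median was 0.10. Here 1 was lower and 1 higher at an unadjusted p under 0.05, against 10.1% and 8.19% of all genes tested. Acvr1b, the type I receptor through which activin drives SMAD2 and SMAD3, was at 47.1, 43.3 and 53.5 CPM after PRATA and at 34.2, 36.1 and 34.1 CPM after the sham operation (log2 fold change 0.46, standard error 0.16, edgeR adjusted p = 0.215). It was therefore higher in every PRATA sample, as was Acvr1, while Tgfbr1 was lower in every one. The BMP receptor gene Bmpr1a was at -0.47 without overlap (edgeR adjusted p = 0.233), and the activin type II receptor gene Acvr2a at -0.29 with overlap (edgeR adjusted p = 0.493). For Acvr2a this was -0.08 without sham replicate 1 and -0.45 without sham replicate 2.

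Extracellular inhibitors bind the ligands or block their receptors. All 9 were tested, with 3 lower and 1 higher at an unadjusted p under 0.05, against 10.1% and 8.19% of all genes tested. Fst, which encodes follistatin, the main binder of activin, was scarce, with 3, 12 and 11 counts after PRATA and 53, 18 and 22 counts after the sham operation, and its lowest sample was at the floor of 3 counts. Its log2 fold change was -1.90 (standard error 0.49, edgeR adjusted p = 0.168). The related Fstl3 was at -0.95, with every PRATA sample between 6.07 and 6.53 CPM and the lowest sham sample at 6.87 CPM, and the proteoglycan gene Bgn was at -0.85 (edgeR adjusted p of 0.198 and 0.188).

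Other SMADs and their regulators numbered 18, all tested. They included 4 lower and 1 higher at an unadjusted p under 0.05, against 10.1% and 8.19% of all genes tested. Pmepa1 (ENSRNOG00000050404), a membrane protein induced by TGF-beta that holds back SMAD2 and SMAD3, was at 84.9, 166 and 95.6 CPM after PRATA and at 292, 294 and 525 CPM after the sham operation. The sham level was 3.20 times that after PRATA (log2 fold change -1.68, standard error 0.34, edgeR adjusted p = 0.156). Smurf1, a ubiquitin ligase that acts with SMAD7, had a log2 fold change of -1.20 and Tgif1, a corepressor of SMADs, one of -0.94, both without overlap (edgeR adjusted p = 0.156 for each). Skil, a corepressor that TGF-beta induces, was at -0.08 with overlap (edgeR adjusted p = 0.869), and at 0.05 and 0.06 without PRATA replicate 1 or sham replicate 1.
The remaining SMAD genes, named after their values were seen, did not share the size of the Smad3 difference. Smad2, the close relative of Smad3 with the same receptors, was at 38.0, 39.2 and 39.5 CPM after PRATA and at 54.4, 38.6 and 47.0 CPM after the sham operation, with overlap and a log2 fold change of -0.27. Smad4, the common partner, was at -0.52, Smad5 at -0.63 and Smad6 at -0.60, each with overlap, and the BMP mediators Smad1 and Smad9 were at 0.53 and 0.50, the former without overlap. Their edgeR adjusted p values ranged from 0.196 for Smad1 to 0.522 for Smad6.

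Of 18 matched target genes of the pathway, 17 were tested. The lower ones numbered 4 and the higher ones 1 at an unadjusted p under 0.05, against 10.1% and 8.19% of all genes tested. Ccn2, which encodes connective tissue growth factor, was at 93.1, 81.6 and 228 CPM after PRATA and at 531, 326 and 632 CPM after the sham operation, with a log2 fold change of -1.89. Postn, the matrix protein gene periostin, was low in all samples, between 1.42 and 9.45 CPM, with a log2 fold change of -1.78 and no overlap. The edgeR adjusted p of Ccn2 and Postn was 0.156.
Targets did not share one direction. The BMP target Id1 had a log2 fold change of 0.11 with overlap (edgeR adjusted p = 0.905), and its sign turned without PRATA replicate 3 (-0.26), without the pair that stood apart (-0.12) and with voom. Id2, named after its value was seen, was higher at 0.70 without overlap (edgeR adjusted p = 0.203), and the median of all 17 targets was -0.24. Without sham replicate 2, Ccn2 had an edgeR adjusted p of 0.0477, Itgb8 0.0291, Pmepa1 0.0436, Smurf1 0.0260, Tgif1 0.0363 and Fstl3 0.0363.

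**Figure D4:**
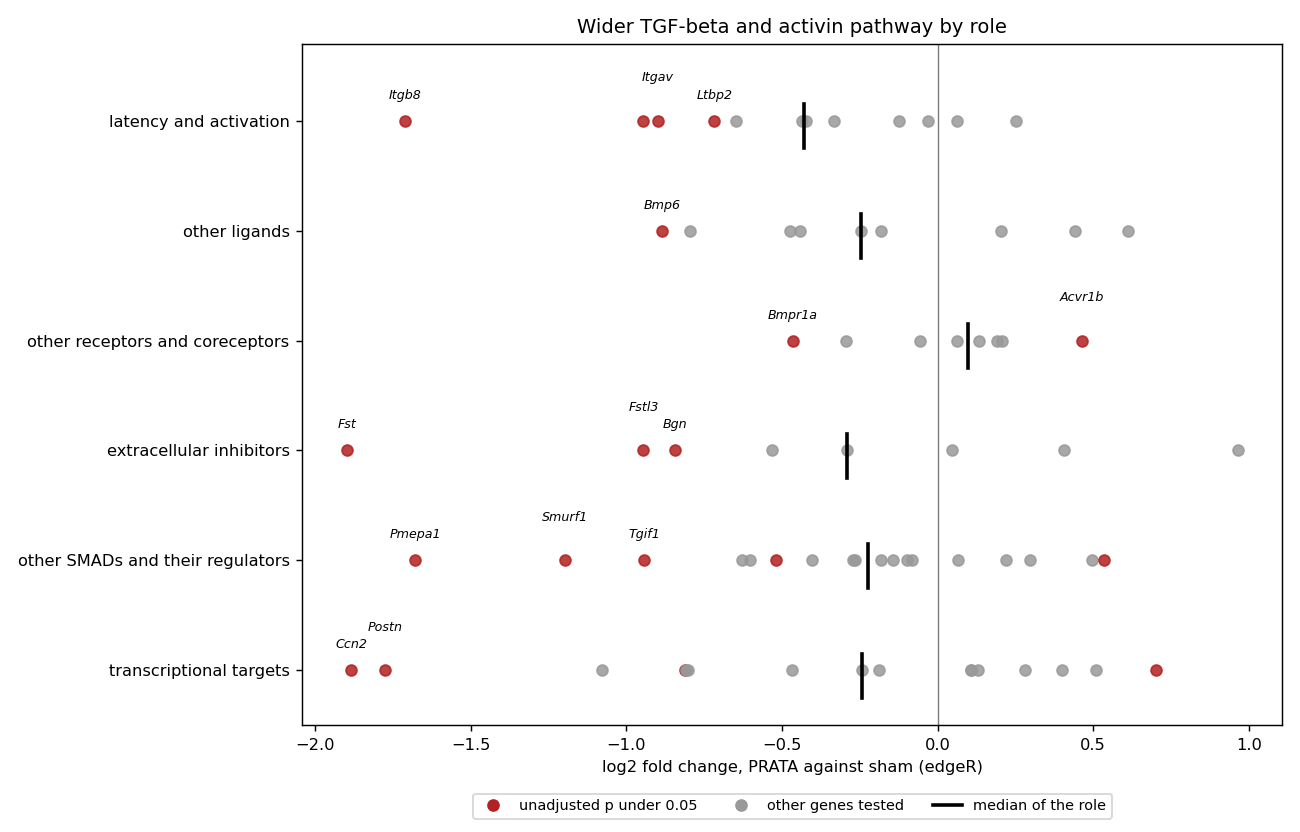
Log2 fold change, PRATA against sham (horizontal axis), of tested genes of the wider list, leaving out those not reported here, in rows by role, with red points for an unadjusted p under 0.05 in edgeR, a black bar at the median of all tested genes of each role, and names for those of the red points that the naming rule picks. Points on the left are Fst, Ccn2, Postn, Itgb8 and Pmepa1, and the median of the receptor row alone is above 0.

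By likeness over the 6 samples, given as a description of these libraries, the log2 CPM of Smad3 followed most closely Glis3 (Pearson r = 0.998), Zfp105 (0.998) and Slc10a3 (0.997) among 11297 genes. That of Tgfb3 followed Urb1 (0.997), Bud23 (0.995) and Tmem68 (0.994), and that of Tgfbr1 followed Tti2 (0.983), Ccz1b (0.982) and Pp2d1 (0.980). All points share the depth and composition of the same 6 libraries, and with so many genes close matches are found for any pattern.

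In the marker lists of other cell types and of neurons, 0 genes had an adjusted p under 0.05 in edgeR. The summed level of every list overlapped between the groups, for Schwann cells only at the edges. By mean log2 CPM the Schwann cell list alone did not overlap (4.86 to 6.06 after PRATA, 3.90 to 4.83 after the sham operation). Among all genes tested, 8.19% were higher and 10.1% lower at an unadjusted p under 0.05, the share to set beside the counts below. The 15 sensory neuron markers all had positive log2 fold changes (median 0.59, 5 at an unadjusted p under 0.05), with summed levels of 13708 to 21135 CPM after PRATA and 9541 to 14394 CPM after the sham operation. The 8 satellite glia markers all had negative ones (median -0.60, 1 at an unadjusted p under 0.05), with 3251 to 6229 CPM after PRATA and 4379 to 8630 CPM after the sham operation. All 7 tested of the 8 Schwann cell markers were positive (median 0.80, 2 at an unadjusted p under 0.05; 772 to 1382 against 582 to 777 CPM), and 7 of the 9 matched fibroblast markers were negative (median -0.47, 0 at an unadjusted p under 0.05; 347 to 2020 against 926 to 1874 CPM). Macrophage, endothelial and pericyte markers had positive medians (0.57, 0.28 and 0.30) and 0 genes at an unadjusted p under 0.05, and their summed levels were at most 80.5, 135 and 257 CPM. No matched marker of any list was at 0 counts in a sample. The part of these shifts in the lower member levels was not tested, and in bulk RNA fewer cells of a type cannot be told apart from less RNA per cell.

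**Figure D5:**
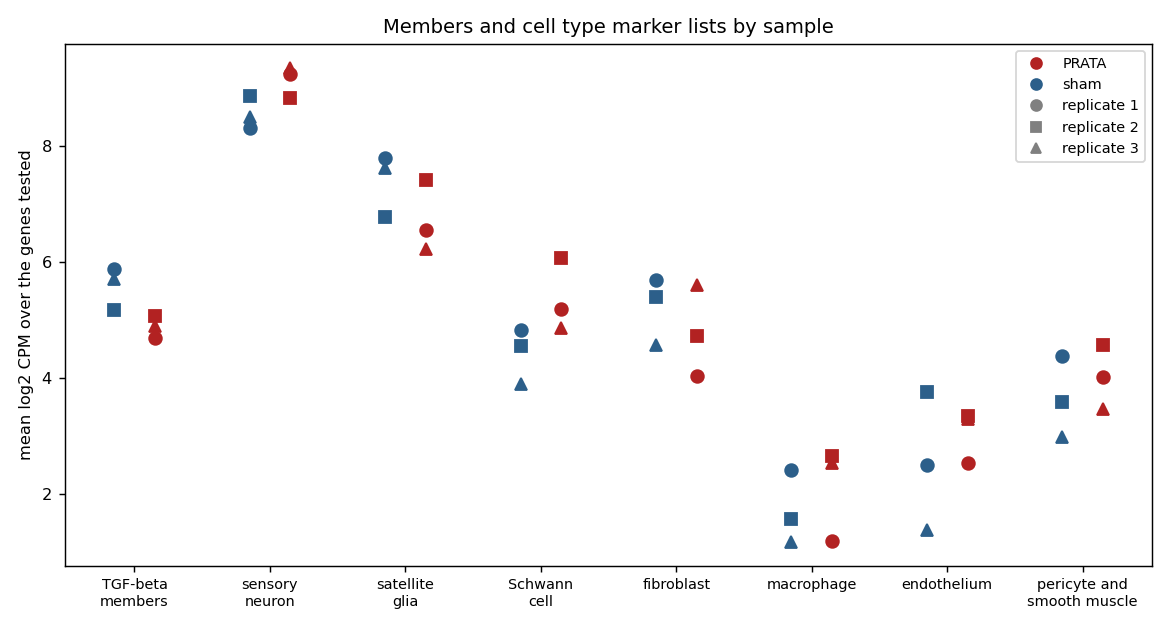
Mean log2 CPM (vertical axis) of the 10 members and of the tested genes of 7 cell type marker lists in each sample, sham in blue and PRATA in red, with the replicate number as the marker shape. The member means lay between 4.68 and 5.06 after PRATA and between 5.17 and 5.87 after the sham operation. The satellite glia and fibroblast means overlapped between the groups, whereas the Schwann cell means did not.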

How the data were processed

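The deposited table holds raw counts of reads per gene, made by the authors without normalization, for 3 PRATA and 3 sham samples. The submitters' processing notes name STAR 2.7.3a, RSEM and DESeq2 without a role, while the paper's methods name HISAT2, StringTie and Cuffdiff for FPKM values that are not used here. The counter, its strand setting, the reference build and its annotation are not given in the sources used here, so reads of overlapping antisense genes may be counted in either gene.
The fits used edgeR 4.0.16, DESeq2 1.42.0 and limma 3.58.1 under R 4.3.3. Low genes were removed by filterByExpr (minimum count of 10, minimum total of 15), and the counts were scaled by TMM (factors from 0.953 to 1.10) and tested with the quasi-likelihood test without a covariate. Intervals and floors cover the spread between these samples or counting error only. The fits were tested on simulated data.
The members, lists and the pair of samples set apart were chosen with earlier results of these data known. All members were named, with the 3 genes of smallest p in each role of the wider list, and Ccn2, Skil and Id1 among others fixed by name. Some items of the wider list are not reported here. The lists lost Col1a2 and Pecam1, which had no matching name, and Gjc3 and 6 genes of the wider list were not tested. Alternatives were DESeq2's size factors, DESeq2, limma voom with sample quality weights, no filter, the replicate number as a block, each sample left out, and the pair that stood apart left out. Promoters are from RefSeq (GRCr8). Plots come from matplotlib 3.10.9 (Python 3.11.15).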

Additional observations from a re-analysis of the deposited data

How the results depend on the processing

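In edgeR with all samples, 0 genes had an adjusted p under 0.05, so no call could be lost. Of the fits of a named gene under an alternative, 327 likewise had no adjusted p under 0.05 and 33 did. The 327 include fits of Tgfbr2, Tgfbr3, Skil and Id1 whose sign turned, and the DESeq2 fit of Fst, which gave no adjusted p. Most named genes of the wider list were picked by small p in these data, so the 33 are a selected set. Members with an adjusted p under 0.05 numbered 4 with DESeq2, 4 with voom and 0 to 2 with each sample left out. In the wider list, 7 genes had an adjusted p under 0.05 with DESeq2, 9 with voom and 0 to 11 with each sample left out. DESeq2 called 4.29% of the genes with an adjusted p lower and 1.93% higher, and voom 4.87% and 3% of all genes tested. The 2 members and the 11 genes came without sham replicate 2, where edgeR called 3.62% of all genes tested lower and 1.05% higher. At an unadjusted p under 0.05 the wider list had 21 genes with all samples and 12 with the replicate block. Of all genes tested, 10.1% were lower and 8.19% higher with all samples, and 6.08% and 4.16% with the block. With each sample left out the list had 10 to 27. The 27 came without sham replicate 2 (14.1% of all genes tested lower, 13.4% higher). It had 13 without PRATA replicate 1 (5.44% and 3.47%) and 10 without sham replicate 3 (5.57% and 3.76%). The cause of these differences was not tested. With each sample left out, the median log2 fold change ran from -0.98 to -0.63 for the members and from -0.37 to -0.08 for the wider list, and the share differences kept their sign for Tgfb2, Tgfbr1 and Tgfbr2. Without a filter on low counts, every gene with any count was tested. The median log2 fold change of all genes tested was then -0.17, and that of the members was -0.82.
With the replicate block, the median log2 fold change of the members was -0.78 and 0 of them had an adjusted p under 0.05. An unadjusted p under 0.05 was found for 4, all lower, against 6.08% of all genes tested lower and 4.16% higher. The labels pair no samples. Once group means were removed, samples sharing a number had correlations of -0.35, -0.03 and -0.35 over genes, which are no replicates. Deviations from a mean of 3 samples are tied to one another, so these values cannot decide whether samples shared a batch. Reads divided by gene length were not run, because no transcript length of the same annotation was used here.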
